A study of Homo sapiens with 6 samples.

Results

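MOV10, DICER1 and SND1 are 3 genes whose proteins have been found with RISC, the Argonaute complex through which microRNAs silence mRNAs. They were taken by symbol from a table of 7682 genes, and all 3 had a row and passed the expression minimum used here (total RNA averaging at least 5 over its 4 columns, met by 6264 genes). MOV10 is also the gene that the siRNA of the study was directed against, so its own rows check the labels. The study measured RNA synthesis and decay in the human embryonic kidney line HEK293, transfected with MOV10 siRNA or mock transfected. Whether the mock cells received a control siRNA is not stated in the sources used here. All cells of both groups were given 700 µM 4-thiouridine (4SU), a uridine analogue that marks newly made RNA, for 60 min. Libraries of poly(A)+ RNA were made from total RNA, from the 4SU-labelled RNA and from the unlabelled flow-through, which makes 6 groups and 6 samples. The table gives 2 replicate columns for each group and 4 columns of mRNA half-lives computed by the authors. Nothing in the sources used here says that replicates 1 and 2 were separate cultures, so p-values measure only the spread between these columns, which may be technical.

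As background, DICER1 encodes the RNase III enzyme that cuts hairpin precursors into mature microRNAs. MOV10 encodes a superfamily 1 RNA helicase that binds Argonaute proteins and UPF1 and moves along mRNA. SND1 encodes a protein with staphylococcal nuclease-like domains and a Tudor domain, described both as a RISC subunit and as a transcriptional coactivator. The amount of a microRNA does not enter any of these measurements: the libraries hold polyadenylated RNA.

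The expression values are normalised by the authors in a unit the header does not name, and they are not counts, so the number of reads behind a value is unknown and levels of different genes are not compared. The 2 columns of each group ranked the 7682 genes closely alike (Spearman 0.993 to 0.996). Of 9 markers listed for the HEK293 line, 5 had a row, among them NEFL, VIM and CDH2, and the other 4, keratins KRT8 and KRT18 among them, were not analysed here. Of 9 markers of other cell types 0 had a row. The alpha globin genes HBA1 and HBA2, which that list does not hold and which were looked up after it, had rows, with total RNA values from 12.1 to 19.1 over both genes and the 4 columns. These genes are near-identical copies, so their values are uncertain. Log2 changes below are differences of mean log2(value + 1) after each column was centred on its median gene. For half-lives they are differences of mean log2 half-life, centred in the same way. Before centring, the median gene changed by -0.0092 in total RNA, by 0.14 in labelled RNA, by 0.02 in flow-through RNA and by 0.20 in half-life.

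The transcripts of the 3 genes differ in the short sequences they carry, which is shown here because an earlier look at these data had singled out the 7 bases TACTGCA in 3′ UTRs of destabilised mRNAs. That choice was made on the same samples, so its presence in a transcript is a description and no support for anything. In GENCODE v29 the coding transcript with the longest 3′ UTR was 3641 bases long for MOV10 (chromosome 1, 3′ UTR of 239 bases), 10331 for DICER1 (chromosome 14, 3′ UTR of 4270) and 3476 for SND1 (chromosome 7, 3′ UTR of 549). The MOV10 transcript, the siRNA target, held TACTGCA 2 times, both in its coding sequence (capitals, with 8 bases on each side).
MOV10, bases 2914 to 2920 of the transcript: aaatccgtTACTGCAtcaccaaa
MOV10, bases 3272 to 3278 of the transcript: acagaattTACTGCAaggtctga
Of 1744 transcripts within 25% of its length, 21.5% held this sequence and 2.24% held it 2 or more times. The DICER1 transcript held it 0 times, although 47.6% of 372 transcripts of similar length did, and the SND1 transcript held it 0 times as well (20.4% of 1748). Among all tested genes with an annotated 3′ UTR of at least 20 bases, 703 of 5852 had it there. No mature human microRNA in the RefSeq table (GRCh38.p14) had a seed complementary to it (0 entries).

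DICER1 is a textbook target of let-7, a microRNA family that DICER1 itself helps to make. The let-7a sequence from RefSeq is given with its seed (bases 2 to 8) in capitals, followed by the 4 matches to that seed (CTACCTC, sense strand) in the DICER1 transcript, also in capitals. All 4 lie in the coding sequence.
hsa-let-7a-5p: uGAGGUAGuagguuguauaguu
DICER1, bases 2927 to 2933: actgtgttCTACCTCttaatgtt
DICER1, bases 3933 to 3939: gcaaccaaCTACCTCatattcca
DICER1, bases 4041 to 4047: taacaaatCTACCTCagatggaa
DICER1, bases 5431 to 5437: attttggaCTACCTCataaccaa
Of 372 transcripts of similar length 42.7% held at least 1 such match and 1.08% held 4 or more. The seed is shared by 11 mature microRNAs of the table. DICER1 also held 6 matches to the seed of miR-107 and miR-103a (ATGCTGC), 5 of them in the 3′ UTR. At least 1 was found in 60.2% of transcripts of similar length, and 6 or more in 0.269%. The SND1 transcript held 0 matches to either seed, where 20.4% and 30.1% of transcripts of its length held 1 or more. MOV10 held 3 let-7 seed matches, all in its coding sequence, and 0 of the other kind. Of the 1744 transcripts of its length, 20.4% held at least 1 let-7 seed match and 0.344% held 3 or more. The other kind was found in 31.4% of them.

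The depletion of MOV10 was large in total RNA and in flow-through RNA. Total MOV10 RNA was 13.1 and 14.6 in the mock columns and 3.53 and 3.64 after siRNA. The siRNA columns lay far below both mock columns, at 25.9% of the mock mean (13.8 ± 1.03 against 3.59 ± 0.0828, SD, n = 2 columns each). The log2 change was -1.67 (SE 0.09, limma, Benjamini-Hochberg adjusted p = 3.6e-08), and only 0.0639% of the 6264 genes had a lower one. Flow-through RNA is taken as made before the labelling hour, which was not tested here. Flow-through MOV10 RNA was 19.6 and 19.3 in mock cells, against 5.13 and 5.38 in depleted cells. It stood at 27.0% of mock, with a log2 change of -1.69 (SE 0.06, limma, adjusted p = 6.2e-05).

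Labelled RNA is taken as made within the hour, which was not tested here either. In this fraction MOV10 differed much less. Labelled MOV10 RNA was 2.95 and 3.20 in mock cells, against 2.55 and 2.63 in depleted cells. The columns did not overlap, and the siRNA mean was 84.2% of the mock mean. These are low values, in columns with medians of 8.85 to 10.0 and lowest values of 1.00 to 1.01. Whether background in the labelled fraction shrank the change was not tested. The log2 change of -0.31 (95% interval -0.54 to -0.09) had a limma adjusted p of 0.0512 over all genes, just short of the threshold of 0.05. Over 11 alternatives the adjusted p ran from 0.0086, where all 6 groups shared the estimate of the spread, to 0.335 without labelled mock replicate 2 (limma), and without centring the change was -0.18 (limma, adjusted p = 0.183). The difference between fractions was itself tested in a fit over all 12 columns. The labelled change exceeded the total change by 1.36 (95% interval 1.12 to 1.59, limma, adjusted p = 2.2e-05) and the flow-through change by 1.37 (95% interval 1.14 to 1.61, limma, adjusted p = 1.6e-05). Of the 3 genes, MOV10 was the 1 called in each of these contrasts. In either direction, 22.6% of all genes were called for labelled minus total RNA and 12.5% for labelled minus flow-through RNA. As higher, 753 of the 6264 genes were called in the first contrast and 420 (6.70%) in the second.

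**Figure D1:**
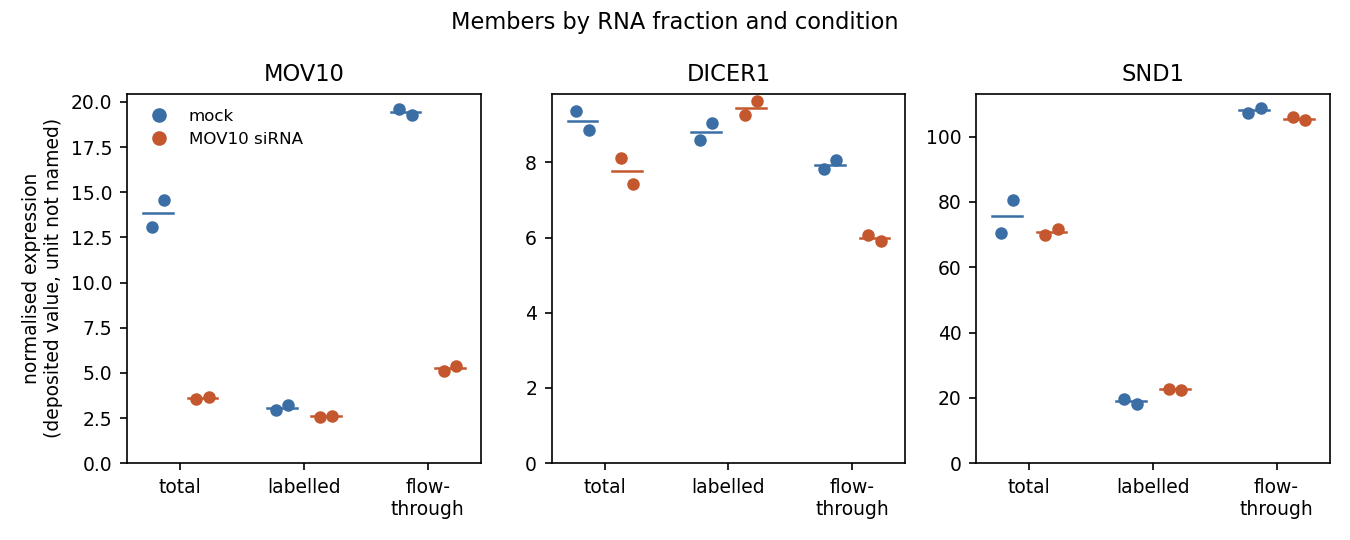
Deposited normalised expression (y axis, unit not named, starting at 0) of MOV10, DICER1 and SND1 in total, labelled and flow-through RNA (x axis). Points are the 2 replicate columns, bars their mean, blue for mock and orange for MOV10 siRNA; MOV10 falls from 13.8 to 3.59 in total RNA but only from 3.07 to 2.59 in labelled RNA.

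The half-lives of MOV10 mRNA in the authors' deposited table were 2115 and 1985 min in the mock columns, against 732 and 1012 min in the siRNA columns. In mock cells this placed MOV10 above 96.3% and 93.4% of the tested genes, among the long-lived mRNAs. After siRNA it stood at 48.4% and 49.5%, close to the median gene in both columns. The log2 change relative to the median gene was -1.44 (SE 0.11, limma, Benjamini-Hochberg adjusted p = 0.0034), which is 2.72-fold shorter. The columns differ in level: the median gene had 736 and 800 min in mock and 754 and 1021 min with the siRNA. Deposited values of siRNA replicate 2 are thus high at the median gene, though not for every gene. DICER1 had 387 min there, against 396 and 409 min in mock. The calculation takes labelled and unlabelled RNA to follow first-order decay, and the half-lives come from the same expression values, so they are not a separate measurement of the depletion.

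DICER1 mRNA was lower in the flow-through after siRNA and not detectably different in labelled RNA. Flow-through DICER1 RNA was 7.83 and 8.06 in mock cells, against 6.07 and 5.92 in depleted cells. The siRNA columns were both the lower ones, at 75.5% of the mock mean. The log2 change was -0.33 (SE 0.07, 95% interval -0.50 to -0.16, limma, adjusted p = 0.0085). In total RNA the values were 9.36 and 8.87 in mock cells, against 8.12 and 7.42 in depleted cells. They too did not overlap, at 85.3% of mock, but the change of -0.19 (95% interval -0.39 to 0.01) did not pass (limma, adjusted p = 0.152). Labelled DICER1 RNA was 8.59 and 9.04 in mock cells, against 9.27 and 9.65 in depleted cells. As deposited, the siRNA columns were both higher, at 1.07 times the mock mean. Relative to the median gene they overlapped, with a change of -0.04 (95% interval -0.23 to 0.15, limma, adjusted p = 0.772) that turned to 0.091 without centring. The labelled change exceeded the flow-through change by 0.29 (95% interval 0.05 to 0.54), which did not pass (limma, adjusted p = 0.112).

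DICER1 was the short-lived gene of the 3. Its half-lives in the authors' deposited table were 396 and 409 min in the mock columns, against 301 and 387 min in the siRNA columns. They were longer than those of 22.9% and 21.6% of genes in mock and of 16.2% and 14.9% after siRNA. Relative to the median gene the half-life was shorter by 1.35-fold, or -0.43 on the log2 scale (SE 0.09, limma with Benjamini-Hochberg adjustment, adjusted p = 0.0416). This call lay close to the threshold and was kept in 2 of 11 alternatives, whose adjusted p ran from 0.0403 to 0.891 (limma). Without centring the change was -0.24 (limma, adjusted p = 0.891). The call was lost without the filter (limma, adjusted p = 0.0791), with quantile normalization (0.0624), with the replicate block (0.0826) and without any 1 of the 4 columns: without siRNA replicate 1 (limma, adjusted p = 0.0944), siRNA replicate 2 (0.0996), mock replicate 1 (0.206) or mock replicate 2 (0.146). The change was -0.38 with quantile normalization and stayed between -0.47 and -0.39 in the fits without 1 column. When half-lives were recomputed with 1 rule for all columns it was -0.29 (limma, adjusted p = 0.0979).

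SND1 was not called in any siRNA comparison. Total SND1 RNA was 70.6 and 80.7 in mock cells, against 70.0 and 71.6 in depleted cells. The columns overlapped, and the change was -0.07 (95% interval -0.22 to 0.07, limma, adjusted p = 0.457). Flow-through SND1 RNA was 107 and 109 in mock cells, against 106 and 105 in depleted cells. Its change of -0.01 had the narrowest interval of the 3 genes there (-0.10 to 0.08, limma, adjusted p = 0.805), and its sign turned with quantile normalization (0.020). Labelled SND1 RNA was 19.7 and 18.1 in mock cells, against 22.7 and 22.5 in depleted cells. Both siRNA columns were higher, by 1.19-fold as deposited, but the change relative to the median gene was 0.11 (95% interval -0.06 to 0.29, limma, adjusted p = 0.333). The labelled change exceeded the total change by 0.19 (limma, adjusted p = 0.104). The half-lives of SND1 in the authors' deposited table were 1758 and 1999 min in the mock columns, against 1686 and 2312 min in the siRNA columns, which overlap. Recomputed with 1 rule for all columns they were 1396 and 1601 min in mock cells and 1170 and 1065 min in depleted cells, without overlap, where the median gene had 615 and 669 min in mock cells and 550 and 501 min in depleted cells. Relative to the median gene the change was -0.12 (95% interval -0.35 to 0.11, limma, adjusted p = 0.490), and without centring it turned to 0.074.

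**Figure D2:**
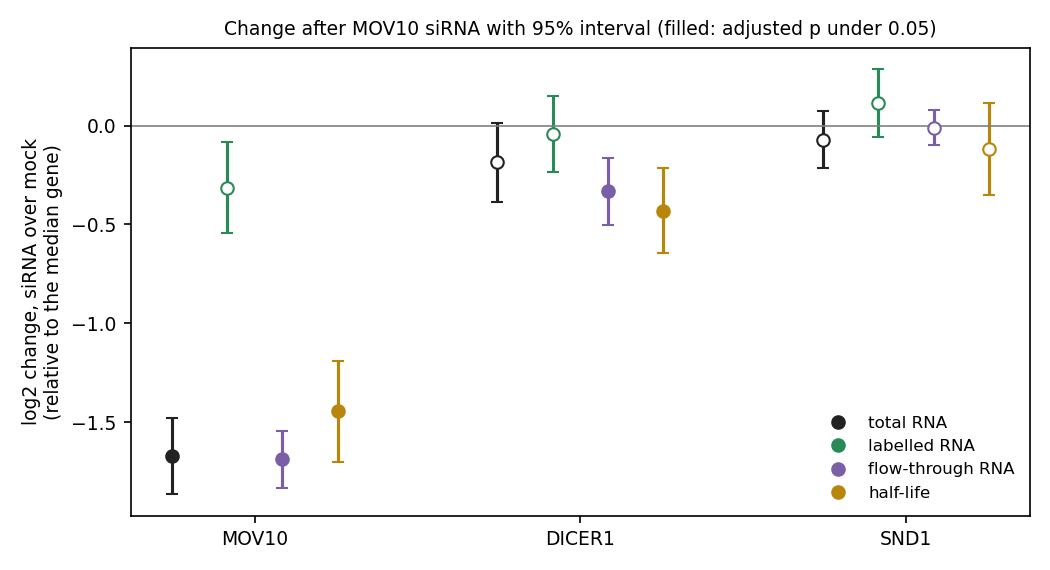
Log2 change after MOV10 siRNA relative to the median gene (y axis) for the 3 genes (x axis) in total, labelled and flow-through RNA and in half-life, with 95% limma intervals. Filled points passed an adjusted p of 0.05: MOV10 in 3 of 4 measures, DICER1 in flow-through RNA (-0.33) and half-life (-0.43), SND1 in 0.

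Against all genes, these calls read as follows. MOV10 is the siRNA target, so its fall was sought by the design. It also met the expression minimum only through its mock columns, so its part in the counts below is no support. In total RNA 1 of the 3 genes fell, where 15.0% of the 6264 did, and 2 of 3 had siRNA columns below mock without overlap, where 30.8% did. In flow-through RNA 2 of 3 fell, where 26.5% did, and the same 2 genes lay below mock without overlap, where 36.2% did. In labelled RNA 0 of 3 passed limma, where 21.3% passed in either direction. MOV10 alone of the 3 had an unadjusted limma p under 0.05 (0.0111), where 2186 of the 6264 genes did. Relative to the median gene, MOV10 lay below mock without overlap there, where 30.1% of genes did, and SND1 above it, where 32.1% did. In half-life 2 of 3 fell, where 4.49% of genes did, but the call of DICER1 was kept in only 2 of 11 alternatives, and without centring 12 genes in all were called. All 3 half-lives lay below mock without overlap relative to the median gene, where 27.5% of genes did, so SND1 and DICER1 share that pattern with many genes. The difference in response between DICER1 and SND1 was not tested.

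The 3 genes had different balances of labelled and flow-through RNA before any depletion. In mock cells the ratio of labelled to flow-through values was 0.151 and 0.166 for MOV10, 0.184 and 0.167 for SND1 and 1.10 and 1.12 for DICER1. The median gene had 0.425 and 0.406, so MOV10 and SND1 lay below it and DICER1 above it in both columns. Relative to the median gene the labelled level was lower by a log2 value of -1.45 for MOV10 (limma, adjusted p = 1.4e-06) and -1.57 for SND1 (limma, adjusted p = 1.7e-07). For DICER1 it was higher by 1.01 (limma, adjusted p = 9.0e-06). Most genes differ in this contrast: 54.1% were called lower and 33.6% higher. The half-lives in mock, computed from the same values, ran the other way, with DICER1 far below the other 2 genes. MOV10 and SND1 were neighbours that did not differ beyond their spread (1985 to 2115 min against 1758 to 1999 min).

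After siRNA that order changed. The ratio of labelled to flow-through RNA of MOV10 rose to 0.497 and 0.490, next to the median gene at 0.465 and 0.466. DICER1 went to 1.53 and 1.63, above 88.0% and 89.2% of genes. SND1 went to 0.214 and 0.215, still above only 14.1% of genes in both columns. The half-lives now ran from SND1 (1686 and 2312 min) over MOV10 (732 and 1012 min) to DICER1 (301 and 387 min), with no overlap between neighbours.

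**Figure D3:**
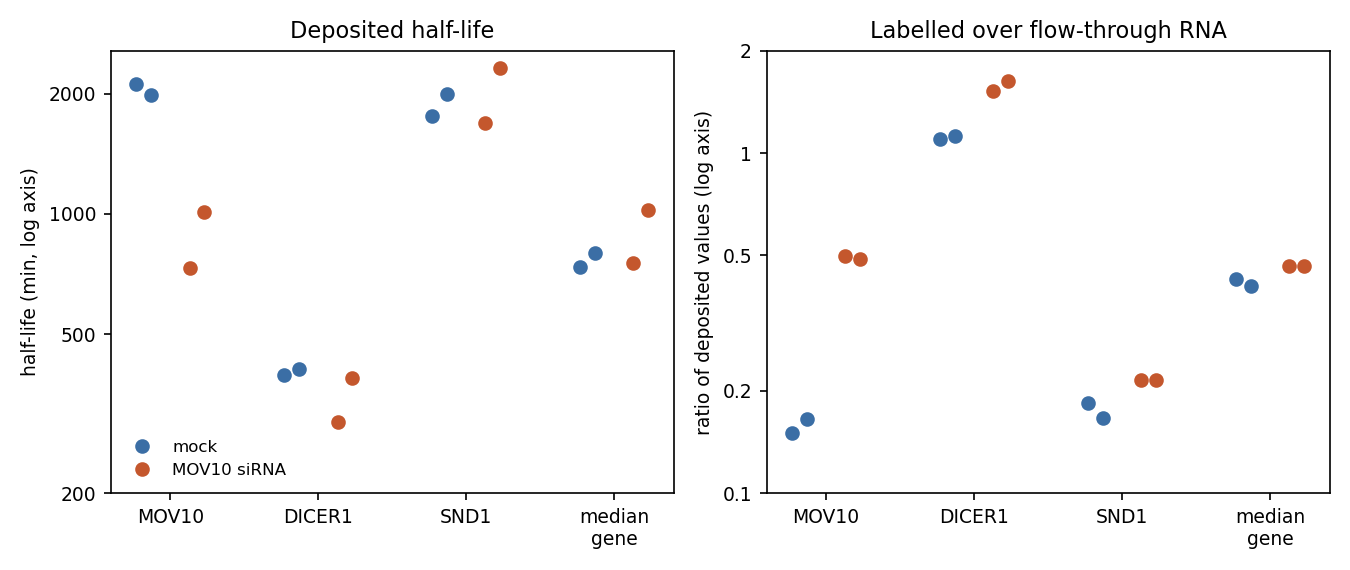
Left, half-lives of the authors' deposited table in min; right, the ratio of labelled to flow-through values; both on log axes, for the 3 genes and the median of the 6264 tested genes (x axis). Points are the 2 columns of mock (blue) and MOV10 siRNA (orange); MOV10 moves from beside SND1 to beside the median gene.

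Which other genes of the microRNA pathway changed when MOV10 was depleted? Of 39 genes listed for the pathway, 23 had a row and 22 passed the expression minimum; the other 16 were not analysed here. In half-life 0 of the 22 passed limma, where 6.50% of all genes passed, with a median change of -0.0083 against 0.0035 over all genes. An unadjusted limma p under 0.05 was found for 5 of the 22, and for 1556 of all 6264 genes. In total RNA 4 rose and 3 fell (31.8%, where 28.5% of all genes were called), with a median of 0.02 against 0.01 over all genes. In flow-through RNA 8 rose and 2 fell, where 32.4% of all genes rose and 26.5% fell. TNRC6C, among those that rose in total and in flow-through RNA, met the expression minimum only through its siRNA columns. These 2 counts are therefore no support for a change of the pathway. In labelled RNA 5 rose and 1 fell, where 9.95% rose and 11.3% fell.

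Downstream of the Argonautes, the GW182 proteins recruit deadenylases to microRNA targets, and the 2 tested genes of this group were higher in total RNA, where 13.6% of all genes rose. TNRC6A was at 9.76 and 9.63 in total mock RNA and at 15.0 and 14.4 after siRNA (log2 change 0.57, limma, adjusted p = 0.0002). TNRC6C was at 4.58 and 4.78 against 6.13 and 6.71 (0.40, limma, adjusted p = 0.0075). The siRNA columns lay above both mock columns in each gene. The share of all genes that did so is not given here, so this is no support. TNRC6C met the expression minimum only through its siRNA columns, since both mock values are under 5, so the count of the group is no support for a group change. In labelled RNA 1 of the 2 rose (TNRC6A, 0.39, limma, adjusted p = 0.0077). In half-life 0 of the 2 passed limma, with changes of 0.26 for TNRC6A and 0.37 for TNRC6C. Both had an unadjusted limma p under 0.05 there, as did 1556 of all 6264 genes. TNRC6B, below the minimum and not tested, was at 3.46 and 3.52 against 4.30 and 4.42. Of the Argonautes only AGO2, listed under its older symbol EIF2C2, was measured here, at 12.4 and 12.4 against 12.6 and 13.6 (limma, adjusted p = 0.412).

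Upstream, in the nuclear processing of primary microRNAs, the helicase DDX5 and the zinc finger protein SRRT fell in total RNA. They were 2 of 3 tested genes of this step, where 15.0% of all genes fell. DDX5 was at 127 and 124 in mock cells, against 93.1 and 94.5 in depleted cells (-0.40, limma, adjusted p = 0.0005), and SRRT at 60.3 and 63.4 against 48.4 and 43.0 (-0.41, limma, adjusted p = 0.0009). DDX17, a close relative of DDX5, was at 0.17 in total RNA (limma, adjusted p = 0.0662). In flow-through RNA DDX5 fell (-0.23, limma, adjusted p = 0.0023), but SRRT did not pass (-0.10, limma, adjusted p = 0.493). SRRT did not pass in labelled RNA either (0.12, limma, adjusted p = 0.363). TARBP2, the double-stranded RNA-binding partner of DICER1, was at 20.4 and 23.7 in total mock RNA and 23.1 and 22.7 after siRNA, which overlap (limma, adjusted p = 0.491). RAN, which drives export of precursors from the nucleus, had a half-life change of -0.04. Among genes that act on precursors, LIN28B, a blocker of let-7 maturation, was at 0.10 and the uridylyl transferase ZCCHC6 at -0.07 in half-life, and neither passed. ZCCHC6 rose in labelled RNA by 0.56 (limma, adjusted p = 0.0015) and in flow-through RNA by 0.56 (limma, adjusted p = 0.0072), and LIN28B fell in labelled RNA by 0.24 (limma, adjusted p = 0.0498).

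Among the chaperones that load small RNAs into Argonaute, PTGES3 (p23) rose in total RNA from 314 and 318 to 386 and 375 (0.29, limma, adjusted p = 0.0018). The heat shock protein gene HSPA8 fell in total RNA from 113 and 117 to 99.0 and 98.8 (-0.19, limma, adjusted p = 0.0307). Its labelled RNA rose by 0.48 (limma, adjusted p = 0.0058), and its flow-through RNA did not pass (0.02, limma, adjusted p = 0.708). HSPA8 was thus called lower in total RNA but in neither of the fractions separated from it. Its half-life did not pass either (-0.40, limma, adjusted p = 0.0696). Each column was centred on its own median gene, and whether these calls depend on that was not tested. Of 7 tested genes of proteins found with RISC, DDX6, a helicase of P-bodies, rose from 17.4 and 16.0 to 20.2 and 19.4 (0.25, limma, adjusted p = 0.0381). None of the other 6 passed in total RNA, where 28.5% of all genes were called.

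MOV10 belongs to the UPF1-like helicases, of which 7 were tested. DNA2, a nuclease and helicase of DNA replication, rose in total RNA from 9.68 and 9.41 to 12.5 and 12.6 (0.38, limma, adjusted p = 0.0046). UPF1, AQR, IGHMBP2, HELZ and ZNFX1 did not pass there, so the 1 call in 7 stands beside 28.5% of all genes. UPF1 was at 25.2 and 30.8 in mock cells, against 30.8 and 30.6 in depleted cells. In half-life 0 of the 7 passed limma, where 6.50% of all genes passed, with changes from -0.28 for ZNFX1 to 0.28 for DNA2. An unadjusted limma p under 0.05 was found for 0 of the 7, and for 1556 of all 6264 genes.

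**Figure D4:**
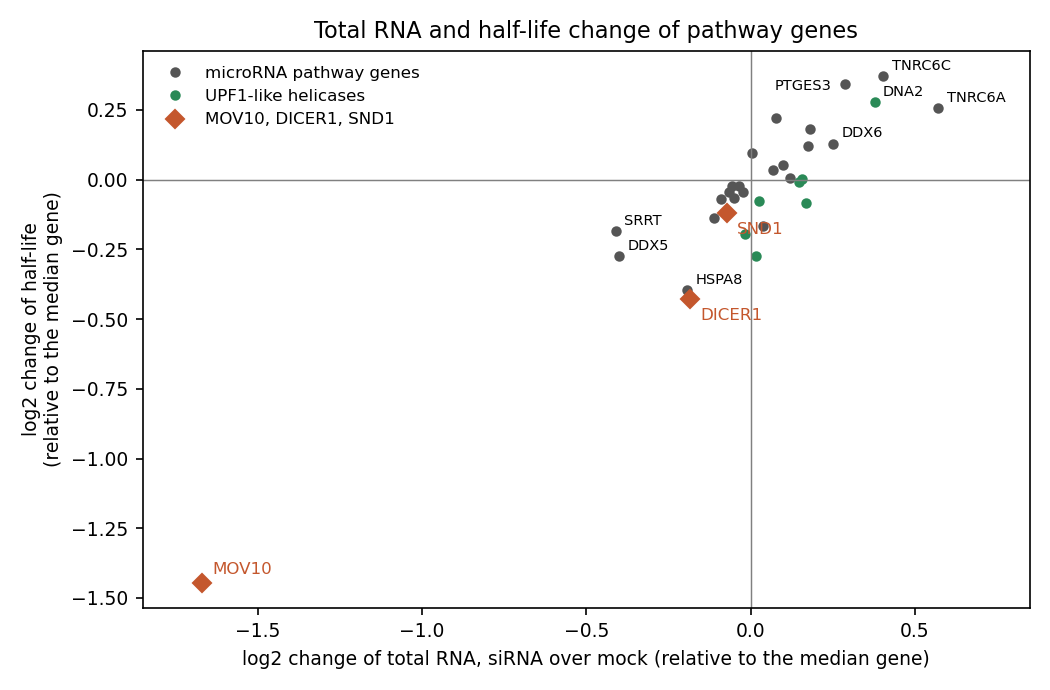
Log2 change of total RNA (x axis) against that of half-life (y axis), siRNA over mock and relative to the median gene, for 22 microRNA pathway genes (grey), 7 UPF1-like helicases (green) and the 3 genes described (orange diamonds). Names mark list genes past an adjusted p of 0.05 in total RNA; MOV10 lies apart at -1.67 and -1.44, and the axes share expression values because half-lives are computed from them.

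The genes of most like pattern were taken as those with the smallest root mean square distance over the 12 expression columns, after centring each gene on its own mean. For MOV10 they were UBQLN1 (distance 0.22 log2 units), VPS36, LDHA, RAB40B and CALM3 (0.26), against a median distance of 0.82 over all genes. Their total RNA changes lay between -1.24 (LDHA) and -1.08 (VPS36), all smaller than that of MOV10. For DICER1 they were RC3H2 (0.09), ABL2, C2orf18, RUFY2 and OTUD4 (0.10). For SND1 they were FAU (0.05), RING1, ATP5A1, GTF3A and YIF1A (0.06). By Pearson correlation of the same profiles, 1, 3 and 0 of the 5 genes were also among the 5 nearest to MOV10, DICER1 and SND1.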

How the data were processed

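The members and gene lists were chosen with earlier results of these data known. Reads were aligned with TopHat2 2.06 to hg18, per the submitters' processing notes. The sources used here do not name the tool that quantified expression. As deposited, the table holds the authors' normalised expression signal (12 columns, none below 1.00, unit not named) and 4 half-life columns, which the authors computed by a published method per the labels' protocols. The unit of time is not named either. Half-lives recomputed over 60 min of labelling correlated with the deposited ones (Pearson of log2 values 0.965 to 0.981 over genes). That correlation would be the same in any unit of time. Minutes were taken because the recomputed medians (501 to 669 min) were of similar size to the deposited ones (736 to 1021). The recomputed medians were lower in each column, at 615, 669 and 550 min against 736, 800 and 754 for both mock columns and siRNA replicate 1, and furthest below in siRNA replicate 2, at 501 against 1021. Whole-number ratios were found in only 27 to 54 of the 250 lowest genes per group, so no read counts were recovered.

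From these values, genes whose total RNA averaged at least 5 over all total columns were kept (6264 of 7682, 81.5%). limma 3.58.1 in R 4.3.3 (eBayes with a mean-variance trend, pseudocount 1, columns centred on the median gene) compared 2 columns with 2, and the contrasts between fractions used all 12. Benjamini-Hochberg adjustment ran over all 6264 genes, with a threshold of 0.05. The fits were also run on simulated data, whose outcome is not reported here and is no support for the calls. Beside the 3 members, the text names list genes past the threshold in total RNA or half-life, for lists without one the largest half-life increase and decrease, and the 5 genes of most like pattern per member; TNRC6B, DDX17, and further list genes were named after their values were seen. GENCODE v29 (GRCh38) and RefSeq sequences were matched by symbol, and no genome coordinates are given because the authors' build differs; 93.4% of tested genes had a 3′ UTR there. No protein sequence was used here.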

Additional observations from a re-analysis of the deposited data

Results flagged for a closer look

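The siRNA change of MOV10 differed between fractions by the test of the difference itself. The labelled change lay above the total change by 1.36 and above the flow-through change by 1.37 on the log2 scale (limma, Benjamini-Hochberg adjusted p = 2.2e-05 and 1.6e-05). Labelled MOV10 RNA was 2.95 and 3.20 in mock cells and 2.55 and 2.63 in depleted cells, while total MOV10 RNA was 13.1 and 14.6 in mock cells and 3.53 and 3.64 in depleted cells. Adding 1 before the logarithm understates changes of such low values: without it the difference between labelled and total RNA was 1.53, and with 5 added 0.92.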

How the results depend on the processing

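No result of MOV10 in total RNA, flow-through RNA, half-life or between fractions changed direction or its side of the threshold in any alternative run; with 5 added before the logarithm its total RNA change was -1.11. MOV10 was not tested with a minimum of 5 in both conditions, which it misses after siRNA. Its labelled change passed without the filter (-0.30), with 5 added (-0.19) and with the spread shared by all 6 groups (-0.31), did not pass without centring (-0.18) or with quantile normalization (-0.25), and lay between -0.40 and -0.23 without 1 column, passing only without mock replicate 1. The half-life call of DICER1 was lost without the filter (-0.42), without centring (-0.24), with quantile normalization (-0.38), with the replicate number as a block (-0.43), in recomputed half-lives (-0.29) and without any 1 column (-0.47 to -0.39). Its flow-through change kept its direction and passed in all 12 alternatives (limma, adjusted p up to 0.0490), with values from -0.38 to -0.22. Labelled DICER1 turned to 0.091 without centring and ranged from -0.11 to 0.031 without 1 column. SND1 turned to 0.020 in flow-through RNA with quantile normalization and to 0.074 in half-life without centring, and ranged from -0.031 to 0.0084 in flow-through RNA without 1 column. Without centring, the labelled change minus the total change passed for DICER1 (0.30) and SND1 (0.34), that minus the flow-through change passed for DICER1 (0.45), and DICER1 no longer differed between labelled and flow-through RNA in mock cells (0.13).

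Genes called in labelled RNA went from 1332 to 2011 without centring, of which 82.8% were higher against 46.8%. Between fractions the share of higher calls went from 53.1% to 84.6% (labelled minus total) and from 53.6% to 91.3% (labelled minus flow-through), and in mock cells from 38.3% to 15.0%. Genes called in half-life went from 407 to 12 without centring and to 228 with the replicate block. Without 1 column, calls ranged from 72 to 197 in half-life, 956 to 2322 in total RNA, 846 to 1396 in labelled RNA, 914 to 1332 for labelled minus total and 388 to 944 for labelled minus flow-through. Such fits leave 1 column in a group, which is taken to vary like the others. Same-numbered columns varied together little: across genes the replicate differences of mock and siRNA correlated at 0.04 in total, -0.03 in labelled, 0.10 in flow-through RNA and -0.05 in half-life. Between fractions of mock cells they correlated at 0.05 to 0.12, and of siRNA cells at -0.01 and 0.08. Low correlations cannot exclude that same-numbered fractions came from 1 RNA sample, and the main fits treat all columns as separate. With the replicate block, no call of a member was lost or gained other than DICER1 in half-life. Causes of these changes were not tested.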
